A study of Mus musculus with 6 samples.

Results

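The miRNAs of the cluster of miR-183, miR-96 and miR-182, and of the related pair miR-204 and miR-211, were described in small RNA libraries from the nucleus accumbens (NAc) of mice in a morphine conditioned place preference (CPP) experiment. Members were chosen by name, as the rows listed under miR-183, miR-96, miR-182, miR-204 and miR-211, and 7 of the 1364 miRNAs in the table were taken. They were mmu-miR-183-5p, mmu-miR-183-3p, mmu-miR-96-5p, mmu-miR-182-5p, mmu-miR-204-5p, mmu-miR-204-3p and mmu-miR-211-5p. The name rule also found mmu-miR-211-3p, which was not on the list of members and had 2 counts, both in morphine replicate 1. The animals were adult male C57BL/6N mice of 7 to 8 weeks. Mice of the morphine group were given morphine (10 mg/kg, i.p.) and saline in alternating sessions over 6 days of conditioning. Mice of the saline group were given saline, and in both groups NAc tissue was taken 0.5 h after the preference test on day 7. Each group had 3 libraries. The design text names 6 mice per group, while a legend of the study names a single mouse per library, so the number of animals pooled in a library is uncertain.

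A miRNA is a short RNA that guides Argonaute proteins to messenger RNAs, mainly through the bases at its 5′ end called the seed. The miR-183, miR-96 and miR-182 hairpins are made together as a single transcript. They are best known from sensory organs, where they are abundant in retinal photoreceptors and in hair cells of the ear, and mutations in the miR-96 seed cause hearing loss in mice and people. miR-204 is abundant in the retinal pigment epithelium and in the choroid plexus, the epithelium in the brain ventricles that secretes cerebrospinal fluid. miR-211 is its close relative and is best known from pigment cells.

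The mature sequences below are shown because the cluster members differ within the seed while miR-204-5p and miR-211-5p do not. They are from RefSeq (GRCm38.p6), written 5′ to 3′ with bases 2 to 8, the seed, in capitals. All 7 members were matched.
mmu-miR-183-5p: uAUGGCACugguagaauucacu
mmu-miR-96-5p: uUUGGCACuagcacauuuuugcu
mmu-miR-182-5p: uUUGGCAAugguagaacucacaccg
mmu-miR-183-3p: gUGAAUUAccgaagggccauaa
mmu-miR-204-5p: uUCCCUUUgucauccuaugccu
mmu-miR-211-5p: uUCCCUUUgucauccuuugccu
mmu-miR-204-3p: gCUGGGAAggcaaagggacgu

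Positions are counted from 1 at the 5′ end. In the seed, miR-183-5p differed from miR-96-5p by A2U, and miR-96-5p differed from miR-182-5p by C8A. Over the whole length the closest pair in the cluster was miR-183-5p and miR-182-5p, with 18 of 22 positions alike, against 13 of 22 for miR-183-5p and miR-96-5p. miR-204-5p and miR-211-5p were alike at 21 of 22 positions and differed by A17U. Shared seeds were sought among the 1089 of 1364 names with a RefSeq sequence. Outside the members, miR-1271-5p had the same seed as a member, miR-96-5p. It had 1 count in saline replicate 1, 1 in saline replicate 3 and none in the other libraries. miR-96-5p had 28 counts in saline replicate 1 and 3 in saline replicate 3. Among these names, nearly every read with this seed thus came from miR-96-5p, except in saline replicate 3.

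The cluster hairpins lie on the minus strand of chromosome 6 in GRCm38, within 3820 bp and outside other annotated genes of GENCODE vM21. Mir183 is at chr6:30169668-30169737, Mir96 at chr6:30169446-30169551 and Mir182 at chr6:30165918-30165992. A gap of 116 bp separates Mir183 from Mir96, and 3453 bp separate Mir96 from Mir182. The nearest other genes are Rncr4, a lincRNA 3156 bp from Mir183, and Nrf1, 12460 bp from Mir182, both on the plus strand. Mir204 lies at chr19:22750605-22750672, in an intron of Trpm3 and on the same strand. Trpm3 encodes a cation channel of the TRP family. Mir211 lies at chr7:64205806-64205911, in an intron of Trpm1, a related channel, and also on its host's strand. The Mir204 hairpin is shown because the ratio of its arms did not overlap between the groups (adjusted p = 0.2, exact permutation test). The mature arms are in capitals, miR-204-5p first.
Mir204: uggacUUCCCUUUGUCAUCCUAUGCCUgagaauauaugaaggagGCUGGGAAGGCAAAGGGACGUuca

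The total count per library was between 4183333 and 9842050. Levels are given as CPM, counts per 1000000 counts of the library after TMM scaling, which multiplies each library total by a factor so that most miRNAs match between libraries. In these libraries 3 counts correspond to 0.315 to 0.549 CPM, which covers counting error only, since amplified reads without molecular identifiers are not independent molecules. Saline replicate 2 stood apart from its group: its Spearman correlations with the other saline libraries were 0.869 and 0.874 over 899 miRNAs, against 0.952 between those 2. Of the 6 neuronal miRNAs checked, all were read in every library, from miR-9-5p at 60965 to 211199 CPM down to miR-137-3p at 22.1 to 518 CPM. Differences were tested with the quasi-likelihood test of edgeR on all 1364 miRNAs, and a miRNA was called where the size of the log2 fold change reached 0.58 and the unadjusted p did not exceed 0.05. These limits follow those of the study. All 7 members had at least 1 count and entered the fit. Whether the libraries came from separate animals is uncertain, so the p-values measure the spread between these samples.

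Among the 7 members, miR-182-5p and miR-96-5p were higher and miR-204-5p was lower in the morphine group by these criteria. That is 2 members higher, where 9.68% of all miRNAs were called higher, and 1 lower, where 9.68% were called lower. With adjustment over all miRNAs, 0 of the 7 members had an adjusted p under 0.05 in edgeR's quasi-likelihood test, against 5.21% of all miRNAs. The members with an unadjusted p under 0.05 were the same 3 that met the criteria above. At an adjusted p under 0.05, the Wald test of DESeq2 called 1 of the 6 members it gave an adjusted p, miR-204-5p, against 18.2% of the 858 miRNAs with one. The exact test of edgeR called 0 of 7, against 5.13% of all miRNAs. The median log2 fold change over all 1364 miRNAs was -0.15. In bulk tissue such as this, fewer cells of a type and less RNA per cell cannot be told apart. The median log2 fold change was 1.87 over the 3 cluster 5p strands and -0.95 over the 3 members from miR-204 and miR-211.

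The plot of levels by library shows the members with at least 10 counts in total.

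**Figure D1:**
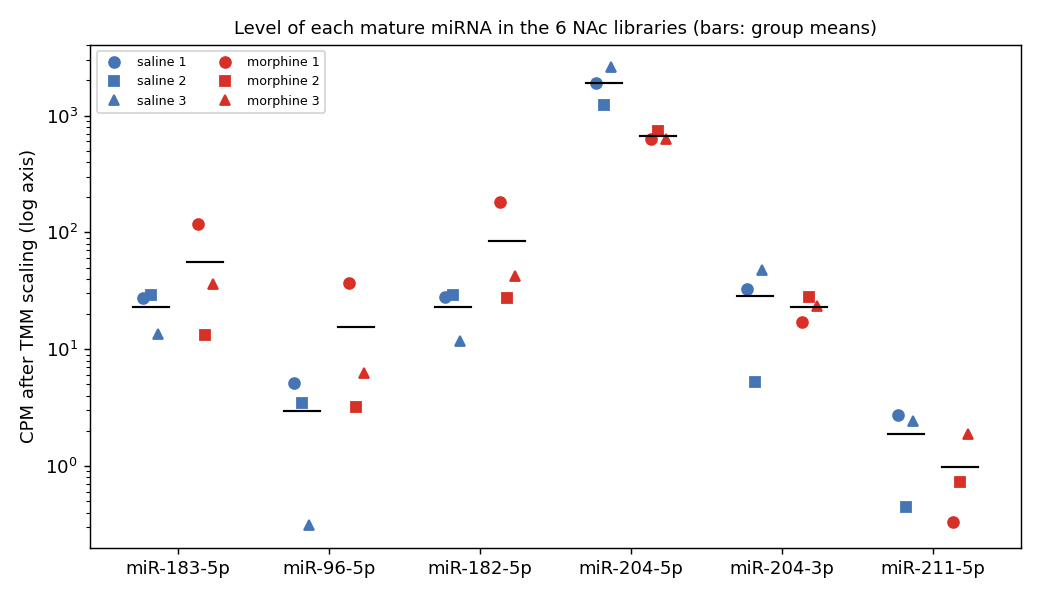
Level of each mature miRNA (CPM after TMM scaling, log axis) in 3 saline (blue) and 3 morphine (red) libraries, with a symbol for each replicate number and a black bar at the group mean. Morphine replicate 1 is the highest library for miR-183-5p, miR-96-5p and miR-182-5p, and for miR-204-5p the highest morphine library (744 CPM) is under the lowest saline library (1225 CPM).

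miR-182-5p was the most abundant cluster member in the morphine group. Its level was 28.0, 29.4 and 11.9 CPM in saline replicates 1, 2 and 3 and 182.975, 27.7 and 41.9 CPM in morphine replicates 1, 2 and 3. Morphine replicate 1 was far above the other libraries, morphine replicate 2 lay within the saline range, and the groups overlapped. The group means were 23.1 ± 9.75 CPM (SD, n = 3) for saline and 84.2 ± 85.8 CPM (SD, n = 3) for morphine. The log2 fold change was 1.87 (SE 0.64, unadjusted p = 0.00815, adjusted p = 0.0849, edgeR). Leaving out morphine replicate 1 gave 0.68 (unadjusted p = 0.274, edgeR) and the call was lost.

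miR-96-5p, the member whose seed is tied to hearing, was read at much lower counts. The counts were 28, 23 and 3 in saline libraries, against 331, 22 and 40 in morphine libraries. These correspond to 5.13, 3.45 and 0.315 CPM and to 36.6, 3.22 and 6.28 CPM. As with miR-182-5p, morphine replicate 1 was alone at a high level, and morphine replicate 2 was below saline replicates 1 and 2. The log2 fold change was 2.40 (SE 0.87, unadjusted p = 0.0112, adjusted p = 0.1003, edgeR). It was 0.77 without morphine replicate 1 (unadjusted p = 0.456, edgeR), so this call too was lost. The 3 counts of saline replicate 3 are at the floor given above.

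miR-183-5p, the first hairpin of the cluster on the transcribed strand, did not meet the criteria. Its level was 27.3, 28.9 and 13.4 CPM in saline libraries, against 118, 13.3 and 36.1 CPM in morphine libraries. Morphine replicate 2 was the lowest of all 6 libraries and morphine replicate 1 the highest. The log2 fold change was 1.26 (SE 0.64, 95% interval -0.06 to 2.59, adjusted p = 0.291, edgeR), an interval that holds both no change and a change as large as that of miR-182-5p. With that highest library left out it was 0.17. The passenger strand, miR-183-3p, had 1 count in morphine replicate 1, 1 in morphine replicate 3 and none elsewhere, which is too few for a fold change.

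Without morphine replicate 1, 0 of the 7 members were higher by the criteria, where 7.95% of the 1321 miRNAs then tested were called higher, and miR-204-5p was the 1 member lower, where 5.37% were. None of the members had an unadjusted p under 0.05 with a higher level in that fit. When saline replicate 2 was left out as well, miR-182-5p met the criteria, with a log2 fold change of 0.82 (unadjusted p = 0.0194, edgeR), and miR-96-5p did not, with 0.93 (unadjusted p = 0.0757, edgeR). Of all miRNAs, 19.7% were called higher in that fit, so 1 of 7 members is near the background. With 2 libraries in a group, the fit borrows its spread from all miRNAs.

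**Figure D2:**
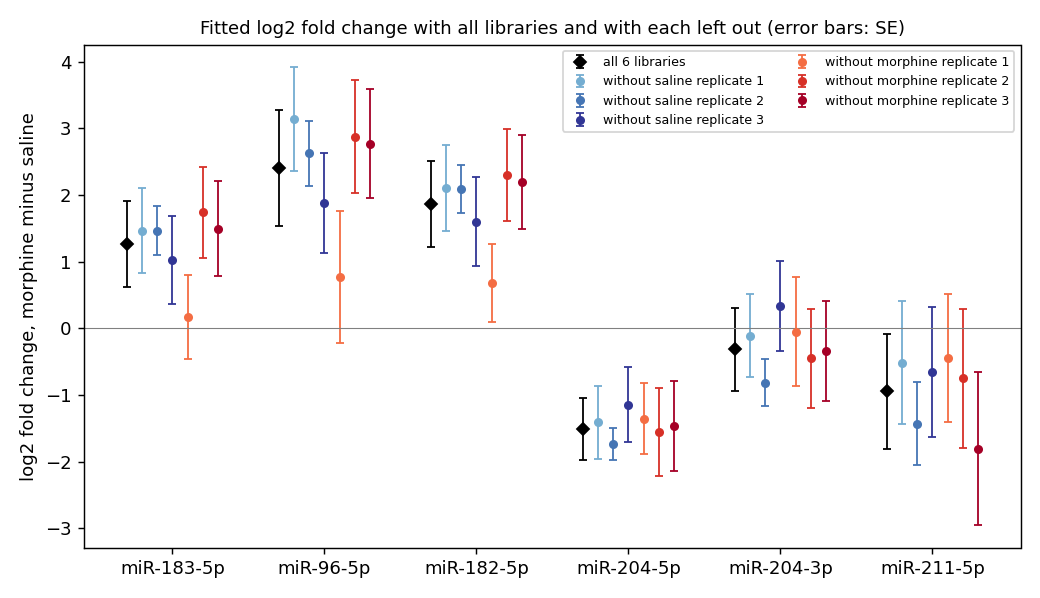
Fitted log2 fold change (morphine minus saline) of each member with all 6 libraries (black diamonds) and with each library left out (circles), with error bars of 1 SE. The values of the cluster members fall towards 0 when morphine replicate 1 is left out (0.17, 0.77 and 0.68 for miR-183-5p, miR-96-5p and miR-182-5p), while miR-204-5p stays between -1.74 and -1.15.

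The cluster members were also set against each other within a library, which does not depend on the scaling of libraries. For each read of miR-183-5p there were 1.03, 1.02 and 0.883 reads of miR-182-5p in saline libraries, against 1.56, 2.08 and 1.16 in morphine libraries. Every morphine library was above every saline library. The share of other miRNA pairs whose ratio separates the groups was not calculated. The mean log2 ratio was -0.04 ± 0.12 (SD, n = 3) for saline and 0.63 ± 0.42 (SD, n = 3) for morphine. The difference of 0.67 reached p = 0.1, the smallest two-sided p of an exact permutation test with 3 libraries against 3, and the adjusted p over the 4 ratios tested was 0.2 (exact permutation test). With 1 library left out in turn, the difference ranged from 0.47 without morphine replicate 2, which had the highest ratio, to 0.88 without morphine replicate 3. It was 0.67 without morphine replicate 1.

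The ratio of miR-96-5p to miR-183-5p was 0.188, 0.119 and 0.0234 in saline libraries, against 0.311, 0.242 and 0.174 in morphine libraries. The groups overlapped at saline replicate 1, and the difference in mean log2 ratio of 1.47 had p = 0.2 (exact permutation test, adjusted p = 0.267). Without saline replicate 3, in which miR-96-5p had 3 counts, it was 0.64. In shares of the cluster's 5p counts, miR-182-5p took 46.3% to 47.6% in saline libraries, against 49.7% to 62.6% in morphine libraries. miR-183-5p took 45.2% to 52.5% and 30.1% to 42.8%.

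Levels of the cluster 5p strands moved together across libraries. Pearson's r of log2(CPM + 1) over the 6 libraries was 0.986 for miR-96-5p and miR-182-5p, 0.939 for miR-183-5p and miR-182-5p and 0.931 for miR-183-5p and miR-96-5p. Over the 5 libraries without morphine replicate 1 these were 0.968, 0.745 and 0.757. These are descriptions of 6 libraries, in which the miRNAs share the library's depth and scaling factor.

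The miRNAs whose pattern was most like that of miR-182-5p were sought among 400 other miRNAs with a mean of at least 10 CPM. The highest were miR-200b-3p (r = 0.996 over 6 libraries) and miR-200a-3p (r = 0.986), followed by miR-34a-5p (0.936), miR-15b-5p (0.917) and miR-199a-3p (0.917). Of these 5, miR-34a-5p and miR-15b-5p did not meet the criteria. Without morphine replicate 1 the r of miR-200b-3p and miR-200a-3p was 0.988 and 0.984, and that of miR-15b-5p fell to 0.537. miR-200a, miR-200b and miR-429 are made from a single cluster and are known from epithelia. For each read of miR-200b-3p there were 2.13, 2.45 and 2.97 reads of miR-182-5p in saline libraries, against 2.45, 2.25 and 2.45 in morphine libraries. miR-200b-3p was chosen as the most alike of 400 miRNAs in these libraries, so the narrow range of this ratio restates the choice.

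miR-200b-3p was at 13.2, 11.998 and 3.99 CPM in saline libraries, against 74.8, 12.3 and 17.1 CPM in morphine libraries. miR-200a-3p was at 9.15, 15.3 and 1.99 CPM and at 123.2, 10.99 and 22.3 CPM. As for the cluster, morphine replicate 1 was alone at a high level. Both met the criteria, with log2 fold changes of 1.84 and 2.57, as did miR-429-3p with 2.77, and without morphine replicate 1 none of these 3 calls remained. Without saline replicate 2 as well, miR-200a-3p (1.63, adjusted p = 0.000944, edgeR) and miR-429-3p (3.11, adjusted p = 4.01e-05, edgeR) met the criteria, while miR-200b-3p did not (0.81). That fit was chosen after seeing the data, and 19.7% of all miRNAs were called higher in it. miR-200c-3p, made from another locus, was at 13.0, 4.05 and 1.99 CPM and at 15.9, 3.81 and 4.24 CPM. It did not meet the criteria, with a log2 fold change of 0.35, which turned to -0.56 without morphine replicate 1 and to -0.040 and -0.036 with scaling by library totals and by the upper quartile.

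**Figure D3:**
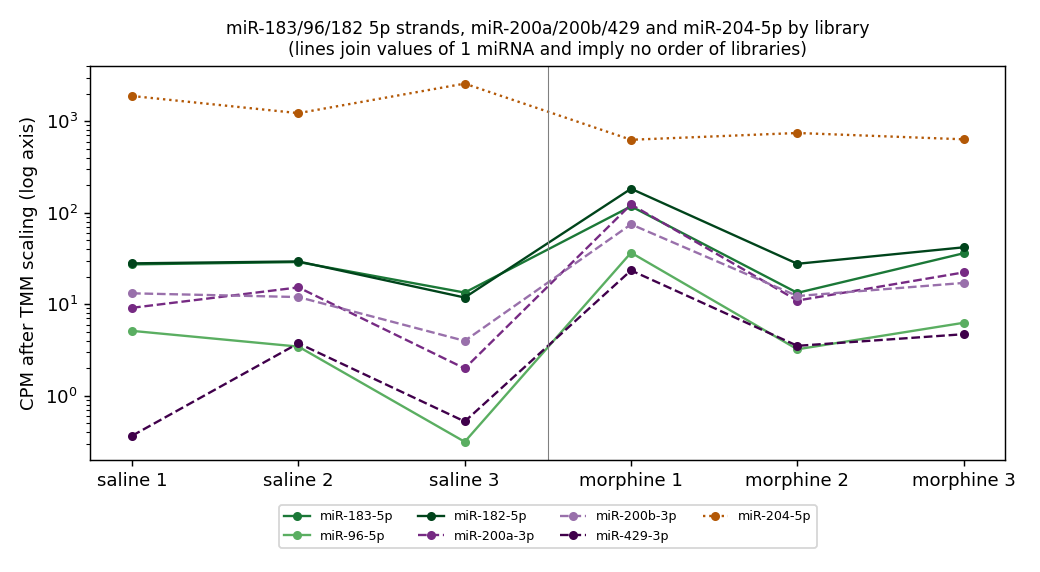
Level (CPM after TMM scaling, log axis) of the cluster 5p strands (green, solid lines), miR-200a-3p, miR-200b-3p and miR-429-3p (purple, dashed lines) and miR-204-5p (orange, dotted line) in each library. The cluster and miR-200a, miR-200b and miR-429 peak in morphine replicate 1, where miR-182-5p is at 182.975 CPM and miR-200b-3p at 74.8 CPM, while miR-204-5p does not.

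The list of multiciliated and epithelial miRNAs joins miRNAs of multiciliated cells to the miR-200 family, known from epithelia in general and not from the choroid plexus alone. It had 11 of its 12 members in the table. Of these, 4 were higher (miR-200a-3p, miR-200b-3p, miR-429-3p and miR-34b-3p), where 9.68% of all miRNAs were, 0 were lower and 7 were not called by edgeR's quasi-likelihood test, with a median log2 fold change of 0.41. DESeq2 and the edgeR exact test each called 3 higher and 0 lower. There was 1 call, miR-34b-3p, without morphine replicate 1, where 7.95% of miRNAs were called higher. There were 7 without saline replicate 2, where 20.9% were, and 6 without both libraries, where 19.7% were. The summed level of the list was 115 to 915 CPM in saline libraries, against 312 to 580 CPM in morphine libraries. It was lowest in saline replicate 1 and highest in saline replicate 2, and its largest part was miR-34c-5p, a miRNA of multiciliated cells. miR-34c-5p was at 58.4, 859 and 189 CPM in saline libraries, against 309, 241 and 353 CPM in morphine libraries, and its log2 fold change of -0.29 became 1.28 without saline replicate 2 and 0.56 with the replicate number as a block. miR-34b-3p had a log2 fold change of 1.21 and lost its call in 11 of 17 alternative settings. Of the miR-449 family, miR-449c-5p was near 0, at 0.314 CPM or less. miR-449a-5p was at 0.549 to 4.95 CPM and was not called with all libraries (log2 fold change 0.69). Without saline replicate 2 it met the criteria (1.85, unadjusted p = 0.00186, edgeR).

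The other marker lists were counted by the same criteria. Over all miRNAs, 9.68% were called in each direction, and lists of 2 to 6 miRNAs are too short for their shares to be read closely against it. Of 6 neuronal miRNAs, 2 were lower (miR-124-3p and miR-129-5p). Of 3 oligodendrocyte miRNAs 1 was lower, miR-219a-5p, with a log2 fold change of -3.69 that became -0.50 (unadjusted p = 0.378, edgeR) without saline replicate 2, and DESeq2 gave it no p-value. 1 of 2 endothelial (miR-126a-3p) and 1 of 4 erythrocyte miRNAs (miR-451a) were higher, and 1 of 3 muscle miRNAs was lower (miR-206-3p). The uncalled miRNAs of these lists had log2 fold changes of the opposite sign. These were -0.96 for miR-126a-5p, and -1.31, -1.16 and -0.20 for miR-144-3p, miR-144-5p and miR-486a-5p. In the muscle list they were 0.32 for miR-1a-3p and 0.27 for miR-133a-3p. The log2 fold change of miR-206-3p, -2.06, became -0.80 (unadjusted p = 0.222, edgeR) without saline replicate 1, and its call was also lost without morphine replicate 1 (-1.76, unadjusted p = 0.0694, edgeR). In the mural and endocrine lists, of 2 miRNAs each, edgeR's quasi-likelihood test, its exact test and DESeq2 called 0. In morphine replicate 1, where the cluster was high, miR-143-3p of the mural list was at 13359 CPM. It was at 5577 and 5900 CPM in the other morphine libraries and at 6766, 18746 and 8831 CPM in the saline libraries. The other mural miRNA, miR-145a-5p, was at 369 CPM in morphine replicate 1. It was at 132 and 140 CPM in the other morphine libraries and at 368, 190 and 336 CPM in the saline libraries. miR-451a was at 423 CPM in morphine replicate 1, 218 and 243 CPM in the other morphine libraries and 60.2 to 163 CPM in the saline libraries. For miR-486a-5p these levels were 146 CPM, 139 and 125 CPM, and 235, 42.4 and 194 CPM. The cluster 5p strands summed to 60.4, 61.8 and 25.6 CPM in saline replicates 1, 2 and 3, against 337, 44.2 and 84.3 CPM in morphine replicates 1, 2 and 3. The part of other cell types in the level of the cluster was not tested.

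miR-204-5p was by far the most abundant member and took 63.9% to 97.1% of the members' counts in a library. Its level was 1886, 1225 and 2576 CPM in saline replicates 1, 2 and 3 and 627, 744 and 634 CPM in morphine replicates 1, 2 and 3. Every morphine library was below every saline library, a separation that 9.9% of all miRNAs showed in this direction. The 3 morphine libraries were close to each other, while the saline libraries differed widely. The group means were 1896 ± 675 CPM (SD, n = 3) and 668 ± 65.3 CPM (SD, n = 3). The log2 fold change was -1.50 (SE 0.47, unadjusted p = 0.00380, adjusted p = 0.0533, edgeR), just over the adjusted threshold. By DESeq2 the adjusted p was 0.00744, and with scaling by library totals in edgeR it was 0.00477.

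The call of miR-204-5p by the study's criteria held in all 17 alternative settings, with log2 fold changes between -1.92 and -1.15. Its adjusted p ranged from 8.08e-12 without saline replicate 2 to 0.324 without morphine replicate 1 (edgeR). In the fit without saline replicate 2, the adjusted p was under 0.05 for 228 higher and 158 lower of 1328 miRNAs. With all libraries it was for 42 and 29 of 1364. Scaling moved the median of all miRNAs, from -0.15 with TMM to -0.40 with library totals. The calls over all miRNAs were 132 higher and 132 lower with TMM, 104 and 194 with library totals, and 112 and 185 with the upper quartile. Relative to this median, miR-204-5p was at -1.35 with TMM and -1.53 with library totals, and miR-182-5p was at 2.02 and 1.998. With library totals miR-96-5p had an adjusted p of 0.0291 in edgeR, against 0.1003 with TMM.

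The passenger strand of the same hairpin, miR-204-3p, did not meet the criteria. Its level was 32.8, 5.25 and 47.6 CPM in saline libraries, against 17.1, 28.1 and 23.6 CPM in morphine libraries. The morphine libraries lay inside the saline range, which was set at its low end by saline replicate 2. The log2 fold change was -0.32 (SE 0.63, 95% interval -1.61 to 0.98, adjusted p = 0.792, edgeR). It turned to 0.33 without saline replicate 3 and to 0.032 with the replicate number as a block, and without saline replicate 2 it was -0.81 and met the criteria. In that fit 3 members were called lower, where 16.1% of all miRNAs were. No direction can be given for this strand.

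The arms of Mir204 were also set against each other within a library. For 1000 reads of miR-204-5p there were 17.4, 4.28 and 18.5 reads of miR-204-3p in saline libraries, against 27.4, 37.8 and 37.1 in morphine libraries. Every morphine library was above every saline library. The mean log2 ratio was -6.48 ± 1.18 (SD, n = 3) for saline and -4.88 ± 0.26 (SD, n = 3) for morphine. The difference of 1.60 had p = 0.1, the smallest that the exact permutation test allows here, and an adjusted p of 0.2 over the 4 ratios. Without saline replicate 2, which had the lowest ratio, the difference was 0.91 and the groups remained separate. The share of other hairpins whose arm ratios separate the groups was not calculated.

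miR-211-5p, with the seed of miR-204-5p, was close to the limit of detection. It had 15, 3 and 23 counts in saline libraries, against 3, 5 and 12 in morphine libraries, or 0.332 to 2.75 CPM. The groups overlapped, and the log2 fold change was -0.95 (SE 0.86, 95% interval -2.73 to 0.84, adjusted p = 0.584, edgeR). Because miR-211-5p differs from miR-204-5p at a single base, reads could be counted for the wrong one of the pair, and the treatment of such reads is not given in the sources used here. There were 1.46, 0.367 and 0.937 reads of miR-211-5p for 1000 reads of miR-204-5p in saline libraries, against 0.529, 0.985 and 2.97 in morphine libraries. The difference of this ratio between groups was 0.58 on the log2 scale (p = 0.5, exact permutation test, adjusted p = 0.5). It rests on few counts of miR-211-5p, and whether reads were counted for the wrong miRNA was not tested. Among the names with a RefSeq sequence, nearly all reads with this seed came from miR-204-5p.

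**Figure D4:**
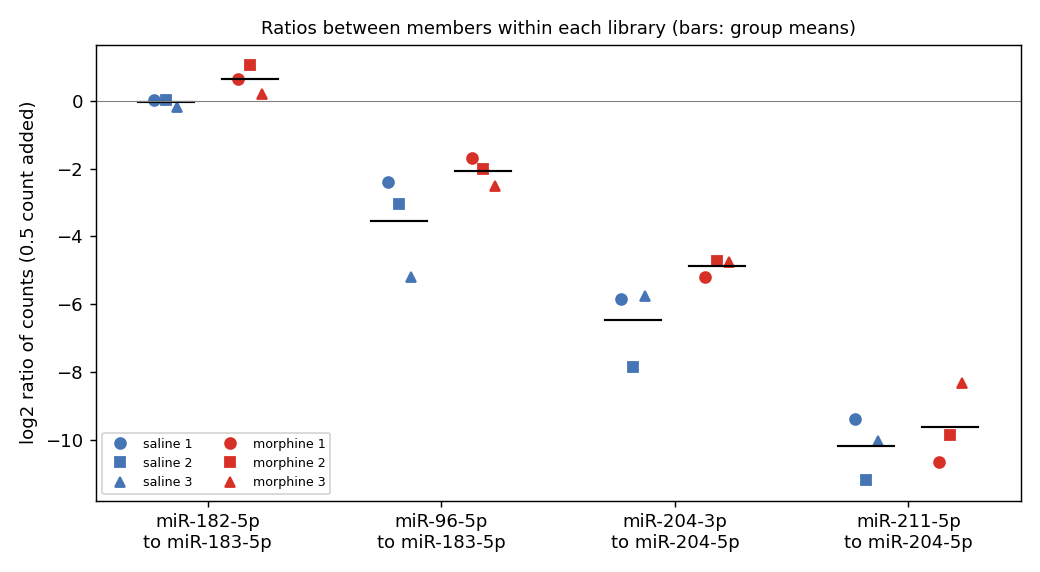
Log2 ratio of counts of 2 members within a library, with 0.5 count added to each, for 3 saline (blue) and 3 morphine (red) libraries and a black bar at the group mean. The ratios of miR-182-5p to miR-183-5p and of miR-204-3p to miR-204-5p are higher in every morphine library than in every saline library, by 0.67 and 1.60 on average, while the other ratios overlap between the groups. How often ratios of other miRNAs separate the groups was not calculated.

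The pattern of miR-204-5p was most like that of miR-676-3p (r = 0.993 over 6 libraries) and miR-501-3p (0.991). Next came miR-744-5p with 0.989, miR-330-3p with 0.987 and miR-423-3p with 0.979. Without morphine replicate 1 these were 0.994, 0.991, 0.987, 0.984 and 0.9747, so the likeness did not rest on that library. These 5 were chosen for their likeness to a miRNA that is itself lower in the morphine group, so their direction follows from the choice. As a description, 4 were called lower, with log2 fold changes from -3.30 for miR-744-5p to -1.32 for miR-501-3p, and miR-676-3p was not called, with -0.93.

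miR-204-5p and the cluster did not follow each other. Pearson's r of log2(CPM + 1) between miR-204-5p and miR-182-5p was -0.733 over 6 libraries and -0.809 without morphine replicate 1. For each read of miR-182-5p there were 67.3, 41.7 and 217 reads of miR-204-5p in saline libraries, against 3.43, 26.9 and 15.1 in morphine libraries. The order of the libraries differed, as saline replicate 3 was the highest library for miR-204-5p and the lowest for miR-182-5p and miR-96-5p.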

How the data were processed

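Small RNA libraries of mouse NAc, 3 per group, were analysed. Reads were cleaned by the authors for adapters, poor quality, unknown bases and length; Bowtie was then used to take out ribosomal, transfer and other RNAs and repeats, and what was left was searched against miRBase. The table the authors deposited gives an unnormalised count for each mature miRNA and library. It also gives TPM, which the authors deposited beside the counts; the TPM values were checked to equal counts per 1000000 of the library total and were not tested. The genome build, miRBase release, counting tool and the test behind the study's DEmiRNA calls are not given in the sources used here. Groups and replicate numbers came from the sample titles. The members and lists were chosen with earlier results of these data known.

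Counts were scaled with TMM and fitted on all 1364 miRNAs by edgeR 4.0.16 (R 4.3.3), whose quasi-likelihood test was run with no covariate and with Benjamini-Hochberg adjustment. The SE is the log2 fold change divided by the root of the F statistic, and intervals use the moderated degrees of freedom. The tests were tried on simulated data. Ratios within a library had 0.5 count added to each miRNA and were compared with exact two-sided permutation tests. A planned ratio of miR-183-3p to miR-183-5p was not calculated, since miR-183-3p had 2 counts. Named miRNAs were all members, miRNAs sharing a seed with a member, called miRNAs of the multiciliated and epithelial list with its most abundant others, and the 5 most like miR-182-5p and miR-204-5p in log2(CPM + 1), among miRNAs with a mean of at least 10 CPM. Marker lists for neurons, oligodendrocytes, multiciliated and epithelial cells, endothelium, mural cells, erythrocytes, endocrine cells and muscle were used. Positions, hosts and sequences are those of RefSeq GRCm38.p6 and GENCODE vM21, for 1089 of the 1364 names, and are not coordinates of the deposited table. No 2 libraries agreed within sampling noise (lowest chi-square per degree of freedom 91.1). Alternatives were other scalings, DESeq2 1.42.0, the edgeR exact test, other filters, a replicate block and leaving out libraries.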

Additional observations from a re-analysis of the deposited data

How the results depend on the processing

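The call of miR-204-5p and its direction held in every alternative run. The count of members called higher, 2 with all libraries, was 1 with the filterByExpr filter, 1 with a minimum of 10 counts in total and 1 without saline replicate 2 and morphine replicate 1, an alternative chosen after seeing the data. It ranged from 0 to 3 when 1 library was left out, and was 0 without morphine replicate 1, where 7.95% of all miRNAs were called higher. Of all miRNAs tested, 96 of 594 were called higher with filterByExpr and 108 of 899 with the minimum of 10 counts. Without saline replicate 2 and morphine replicate 1, 251 of 1273 were. The count called lower ranged from 1 to 3, with 3 without saline replicate 2, where 16.1% of all miRNAs were called lower and 20.9% higher. miR-96-5p lost its call with filterByExpr (log2 fold change 2.39), with a minimum of 10 counts (2.35) and without saline replicate 2 and morphine replicate 1 (0.93), and ranged from 0.77 to 3.14 with 1 library left out. miR-182-5p ranged from 0.68 to 2.30. miR-183-5p met the criteria with miRBase names only (1.28) and ranged from 0.17 to 1.74, with calls in 4 of these 6 fits. miR-211-5p ranged from -1.80 to -0.44 and met the criteria without saline replicate 2. miR-204-3p ranged from -0.81 to 0.33. The ratio of miR-211-5p to miR-204-5p ranged from -0.057 to 1.11. miR-34c-5p ranged from -0.70 to 1.28 and was 1.26 without saline replicate 2 and morphine replicate 1; miR-200c-3p was -0.040 with library totals, -0.036 with the upper quartile and -0.84 without those libraries, and ranged from -0.56 to 1.496. The cause of these changes was not tested.

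The groups share replicate numbers, but after subtracting group means the libraries of the same number correlated at -0.23, -0.28 and 0.14, so the numbers were not taken as pairs. With the replicate number as a block, 2 members were higher and 1 lower, the same counts as without it. Of all 1364 miRNAs, 110 were then called higher and 69 lower, against 132 and 132 without the block. In edgeR the adjusted p of miR-204-5p was 0.255 with the block and that of miR-182-5p 0.365. miR-204-3p was then at 0.032 and miR-34c-5p at 0.56, both turned in sign. Depth limits miR-183-3p, miR-211-5p and miR-96-5p in saline replicate 3, where counts were near the floor. Over all miRNAs, edgeR's quasi-likelihood test gave an adjusted p under 0.05 to 42 higher and 29 lower miRNAs with all libraries, to 228 and 158 without saline replicate 2, and to 0 without morphine replicate 1, where 105 higher and 71 lower met the unadjusted criteria.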
